A study of Homo sapiens with 12 samples.

Results

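Arginine is made, imported and used up by a small set of enzymes and carriers, and 10 of their genes are described here in U-87 MG glioma cells that carried a hairpin against p105 or a control hairpin. They are ASS1, ASL, ARG2, ODC1, OAZ1, AZIN1, SLC7A1, SLC7A2, SMS and SAT1, 10 of the 19775 genes that could be given a value. They were listed for their roles in arginine synthesis, breakdown and transport and in polyamine metabolism. ASS1 was put at the head of the list because of its large difference between the 2 lines, and the rest were listed with the results of all 4 groups known. Differences between the lines are therefore given for these 10 genes as a description, without a test: a count of those past the threshold (an adjusted p under 0.05) is set beside that of all genes once, and nothing is read from it. The responses to temozolomide were not the reason that ASS1 was chosen, and they were tested, although they too were known when the list was made. The array read the 10 genes with 22 probe sets that had a single gene symbol, and none of the 10 was removed by a filter on low values, since none was used. Each gene is represented by its brightest probe set, judged by the mean of all 12 arrays.

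Cells obtain arginine from outside or build it from citrulline. Argininosuccinate synthase, ASS1, joins citrulline to aspartate, and argininosuccinate lyase, ASL, splits the product into arginine and fumarate. Many tumours, gliomas among them, make little ASS1 and then depend on arginine from outside, which is the basis of treatment with arginine-degrading enzymes. Arginase 2, ARG2, sits in mitochondria and turns arginine into ornithine and urea, and ornithine decarboxylase, ODC1, turns ornithine into putrescine, the first polyamine. Spermine synthase, SMS, makes spermine from spermidine, while the acetyltransferase SAT1 marks both for export or breakdown. Antizyme, OAZ1, sends ornithine decarboxylase to the proteasome, and the antizyme inhibitor AZIN1, a relative of ODC1 without enzyme activity, withdraws antizyme from it. SLC7A1 and SLC7A2 are carriers for cationic amino acids and bring arginine across the plasma membrane.

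RNA was measured on 12 Affymetrix arrays. U-87 MG is an established human glioma line, and every group shared the line, its serum-containing medium with antibiotics and a stably transfected hairpin. The shControl cells carried a control hairpin and the shp105 cells a hairpin against p105, the product of NFKB1 and precursor of the NF-kB subunit p50. Cells of each kind were given temozolomide (TMZ), a DNA-methylating drug used against glioma, at 100 uM, or the vehicle DMSO, for 16 h. This made 4 groups of 3 arrays: shControl with DMSO, shControl with TMZ, shp105 with DMSO and shp105 with TMZ. Replicates are named biological in the labels, which are silent on separate transfections and on whether each hairpin was carried by 1 clone or a pool. The p-values therefore measure the spread between these samples, and a difference between the lines cannot be told apart from a difference between the transfected populations.

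The promoters of ASS1, ASL, SMS and SAT1 are shown as examples because these were the 4 of the 10 genes with the largest differences between the lines, a choice made from their values. They are printed with the GC box letters GGGCGG, the core of the binding motif of SP1-type factors, in capitals on either strand (CCGCCC where the box lies on the other strand). Each is the 250 bases before the gene's start, 5′ to 3′, from RefSeq on GRCh38.p14, plus strand: chr9:130444457-130444706 for ASS1, chr7:66075569-66075818 for ASL, chrX:21940459-21940708 for SMS and chrX:23782923-23783172 for SAT1.
ASS1: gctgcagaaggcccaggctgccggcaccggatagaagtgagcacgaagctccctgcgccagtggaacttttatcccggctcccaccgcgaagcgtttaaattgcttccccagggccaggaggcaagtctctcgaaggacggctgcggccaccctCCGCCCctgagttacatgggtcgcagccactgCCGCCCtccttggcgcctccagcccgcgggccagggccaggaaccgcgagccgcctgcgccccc
ASL: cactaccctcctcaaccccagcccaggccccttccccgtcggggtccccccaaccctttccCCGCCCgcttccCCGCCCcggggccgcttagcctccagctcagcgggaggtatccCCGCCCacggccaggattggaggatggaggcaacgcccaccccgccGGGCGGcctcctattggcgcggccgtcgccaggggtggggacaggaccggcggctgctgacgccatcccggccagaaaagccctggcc
SMS: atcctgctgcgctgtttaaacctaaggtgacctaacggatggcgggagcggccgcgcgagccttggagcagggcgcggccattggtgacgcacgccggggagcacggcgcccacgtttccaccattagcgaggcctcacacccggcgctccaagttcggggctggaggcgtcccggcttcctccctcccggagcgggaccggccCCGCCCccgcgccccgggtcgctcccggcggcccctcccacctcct
SAT1: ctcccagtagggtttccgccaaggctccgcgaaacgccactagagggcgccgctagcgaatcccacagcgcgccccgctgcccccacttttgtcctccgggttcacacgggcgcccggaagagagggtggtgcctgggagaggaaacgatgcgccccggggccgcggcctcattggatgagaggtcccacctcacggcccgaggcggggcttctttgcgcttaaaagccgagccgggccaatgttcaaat

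A promoter was found in the RefSeq table for 8 of the 10 genes. The ASS1 window held 2 GC boxes, 96 and 64 bases before the start, and that of ASL held 4, at 189, 177, 134 and 88 bases. SMS had 1 GC box at 46 bases and SAT1 had none. Of the 8 genes 7 had at least 1 GC box, against 42.3% of 27305 promoters of this length. The E-box CACGTG was in 0 of the 8 and in 6.49% of all promoters, and TATAAA in 0 of the 8 and in 11.1%. The kappaB consensus, the motif NF-kB binds, was searched by name on both strands. It matched in 1 of the 8, ASL, 210 bases before its start, and in 9.57% of all promoters. All motifs were searched on both strands, and overlapping matches were counted. The 8 windows were 66.4% (SAT1) to 84.4% (SLC7A1) G and C, with ASS1 at 68.4%, against a median of 58.0% over all promoters. The GC box is made of G and C alone. Its share was not set against promoters of like G and C content, so nothing is read from it. A match is a description of the letters in this window.

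Values are log2 expression levels as deposited, so a difference of 1 is a 2-fold change, and levels of different genes are not set against each other because probe sets differ in brightness. The median level of an array lay between 5.04 and 5.09, and 27 control probe sets for sequences absent from these cells read 2.33 to 4.30. NFKB1, the targeted gene, averaged 7.32, 7.41, 7.20 and 7.16 in shControl with DMSO and TMZ and shp105 with DMSO and TMZ, and its line difference was -0.12 (SE 0.07, adjusted p = 0.260) in DMSO and -0.25 (SE 0.07, adjusted p = 0.0204) in TMZ. The latter did not pass without shp105 TMZ replicate 1 or 3 or shControl TMZ replicate 1 or 2 (adjusted p up to 0.0903). The mesenchymal glioma markers VIM, CD44, FN1 and S100A6 read 12.4 to 14.8 on every array, TNC 11.49 to 11.84 and SPARC 9.21 to 9.97, whereas the glial markers GFAP, S100B, SOX2, PDGFRA and AQP4 stayed at or below 5.36, and the stem cell filament NES read 4.45 to 5.77. In DMSO the shControl and shp105 means were 12.99 and 12.74 for CD44 and 12.95 and 12.54 for FN1, lower in shp105 cells, and 9.39 and 9.93 for SPARC and 4.92 and 5.53 for NES, higher there. Of the markers of other cell types, the leukocyte list (4 genes measured) ranged from 2.66 to 6.03, the epithelial list (5) from 2.98 to 5.61 and the endothelial list (4) from 2.91 to 6.14. The endothelial receptor TEK moved with the line, with means of 4.26 in shControl and 5.79 in shp105 cells in DMSO, whereas PECAM1 (5.86 and 5.83), VWF (4.73 and 4.70) and CDH5 (3.28 and 3.13) read alike. The glial factor OLIG2 averaged 4.05 and 5.27. The 18 hybridization spike-ins, added at a fixed amount, averaged 10.63 and 10.95 in shControl cells with DMSO and TMZ and 11.13 and 11.32 in shp105 cells. They thus moved with the line, by 0.498 in DMSO and 0.372 in TMZ, and with the drug. The fit was therefore repeated with a covariate for the spike-in level. Then 1.2% of all genes were called higher and 1.44% lower in shp105 cells in DMSO, and 2.78% and 2.5% in TMZ, and the NFKB1 difference was -0.03 (adjusted p = 0.968) and -0.18 (adjusted p = 0.565). On single arrays the spike-in mean was 10.57 to 10.67 in shControl and 11.01 to 11.20 in shp105 cells with DMSO. With TMZ it was 10.84 to 11.01 and 11.18 to 11.43. The lines were apart within each treatment, so this fit cannot fully separate the line from the spike-in level. The SE of the NFKB1 difference rose to 0.17 in DMSO and 0.13 in TMZ. Whether a call lost in this fit came from the spike-ins was not tested. The part of the markers that moved with the line in the results was not tested.

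ASS1 was high in shControl cells and low in shp105 cells, whatever the treatment. In shControl cells it stood at 9.86, 9.79 and 9.92 with DMSO and at 9.76, 9.89 and 9.79 with TMZ. In shp105 cells the levels were 5.69, 6.06 and 6.04 with DMSO and 6.05, 6.15 and 5.81 with TMZ. No array of one line came near any of the other, and the treatments overlapped within each line. In the order of group means, shControl with DMSO (9.86, SD 0.06, n = 3) and with TMZ (9.81, SD 0.07) were followed by shp105 with TMZ (6.004, SD 0.18) and with DMSO (5.93, SD 0.20). The line difference was -3.93 (SE 0.11) in DMSO, 15.2-fold lower in shp105 cells, and -3.81 (SE 0.11) in TMZ, 14.0-fold lower. Among the 19775 genes this was the 4th lowest difference under each treatment. The shp105 levels were above the range of the controls for absent sequences. With the spike-in level in the fit the difference was -4.08 in DMSO and -3.92 in TMZ.

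ASS1 lies at chr9:130444707-130501274 (GRCh38.p14) and was read by 1 probe set. RefSeq lists 14 pseudogenes of ASS1 on 11 chromosomes, and 0 of them had a probe set of its own on this array. How much of the signal came from such copies is uncertain. The genes whose 4 group means, each centred on their mean, lay closest to those of ASS1 were CXCL14, a chemokine, with a root mean square distance of 0.081 and a line difference of -3.73 in DMSO and -3.70 in TMZ, and RNF175, with a distance of 0.114 and differences of -3.67 and -3.62. They were followed by the long noncoding RNA HOTAIR at 0.163, the splicing regulator MBNL3 at 0.246 and the homeobox gene HOXC10 at 0.415. This likeness was over 4 group means and describes these arrays.

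**Figure D1:**
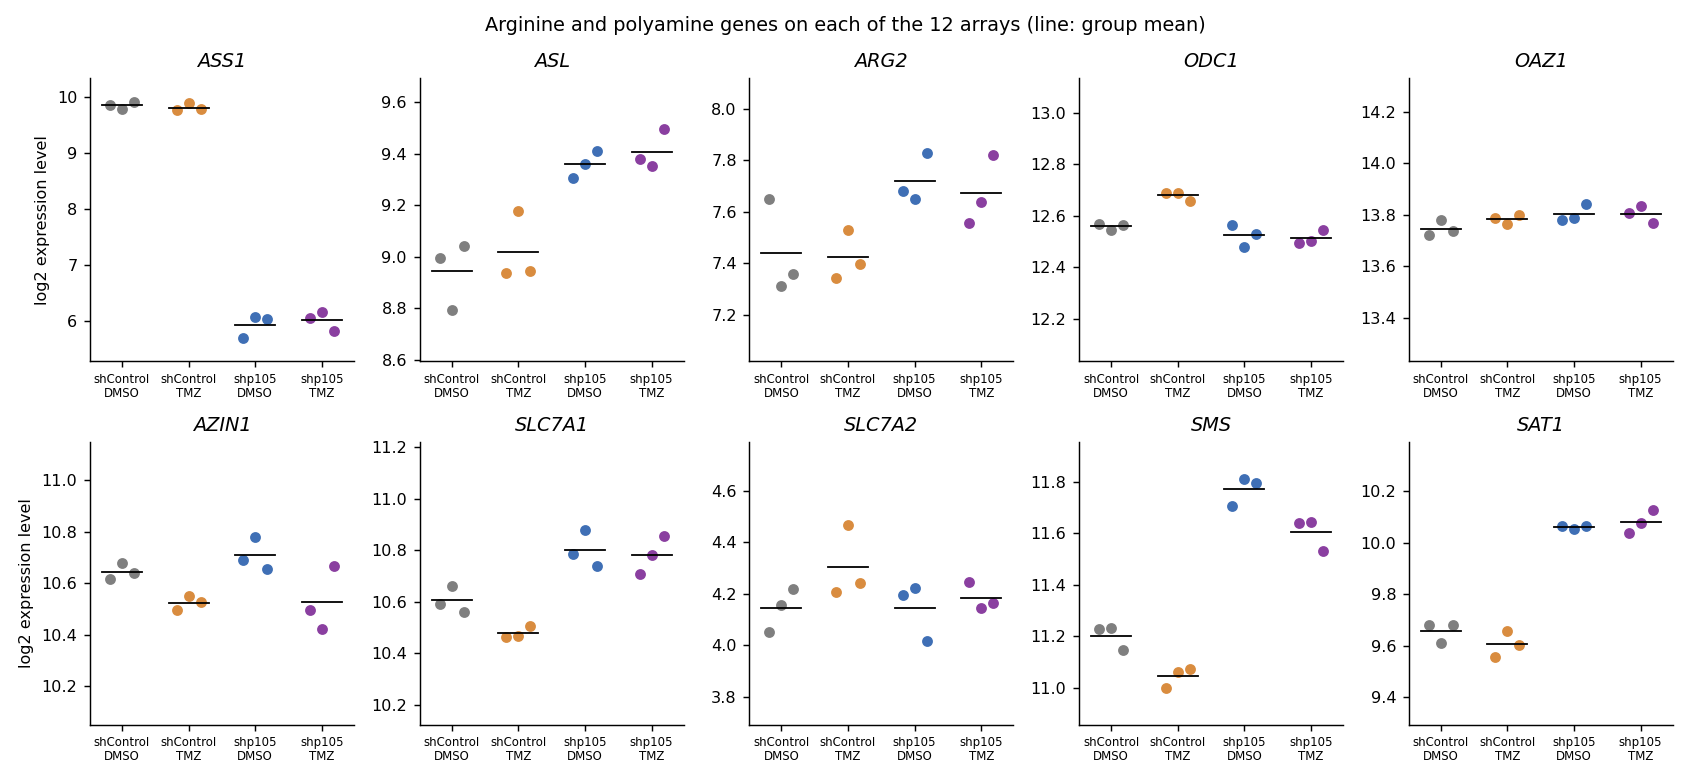
Log2 expression level (y axis, a separate scale for each gene) of the 10 genes on each of the 12 arrays. Points are arrays, bars are group means, and the 4 groups are shControl and shp105 cells with DMSO or TMZ. ASS1 falls from about 9.8 to about 6 between the lines, SMS and SAT1 are higher on every shp105 array than on any shControl array, and OAZ1 varies little.

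The genes around ASS1 did not share its difference. Of its 10 nearest measured genes, 5 on either side, 1 was higher and 2 were lower in shp105 cells in DMSO (limma, adjusted over all genes), with differences from -0.45 to 0.23. In TMZ 1 was higher and 1 lower. HMCN2, which encodes the matrix protein hemicentin 2 and is the nearest on the upstream side, read 6.94, 6.74 and 6.77 in shControl cells with DMSO and 6.36, 6.57 and 6.17 in shp105 cells. Its difference was -0.45 (SE 0.11, adjusted p = 0.0148) in DMSO and -0.36 (SE 0.11, adjusted p = 0.0423) in TMZ. NCS1, a neuronal calcium sensor, was lower in DMSO (-0.32, SE 0.09, adjusted p = 0.0252) but did not pass in TMZ (-0.18, adjusted p = 0.201). FNBP1, a membrane-bending protein, was higher by 0.23 (SE 0.05, adjusted p = 0.00459) in DMSO and 0.15 (SE 0.05, adjusted p = 0.0409) in TMZ. USP20, GPR107, LOC100272217, FUBP3, PRDM12, EXOSC2 and ABL1 were not called under either treatment, with differences from -0.21 to 0.23. With the spike-in level in the fit the 3 differences in DMSO were -0.59 for HMCN2, -0.08 for NCS1 and 0.21 for FNBP1 and those in TMZ -0.47 for HMCN2 and 0.14 for FNBP1, and none of the 5 calls held (adjusted p from 0.319 to 0.928). The FNBP1 call in DMSO held with each array left out. Those of HMCN2 (without shp105 DMSO replicate 3 or shControl DMSO replicate 1, adjusted p up to 0.0633) and NCS1 (without shp105 DMSO replicate 1 or 3 or shControl DMSO replicate 3, up to 0.103) did not, and in TMZ the calls were lost in 11 of 12 such fits for FNBP1 and 7 for HMCN2. The background of this comparison was wide: 8.34% of all genes were called higher and 11.6% lower in shp105 cells in DMSO, and 10.1% and 11.0% in TMZ.

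**Figure D2:**
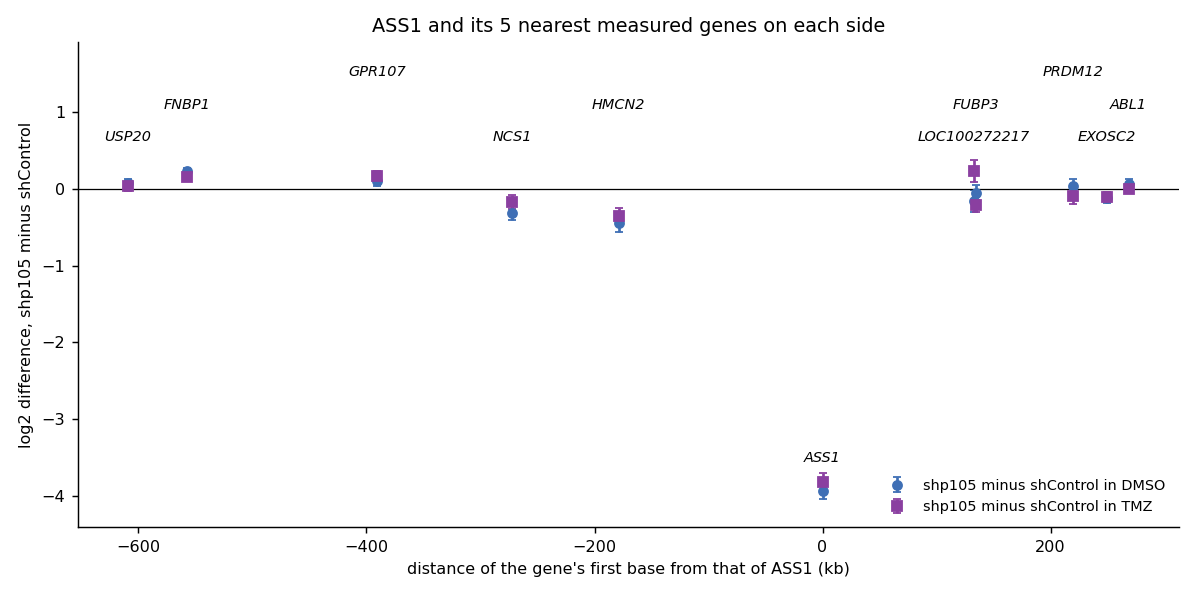
Log2 difference between the lines (y axis, shp105 minus shControl) of ASS1 and its 5 nearest measured genes on each side, against the distance of each gene's first base from that of ASS1 in kb (x axis). Circles are DMSO, squares TMZ, and bars the standard error of the fit. ASS1 sits near -3.9, and its 10 neighbours lie between -0.45 and 0.23.

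ASL, the partner of ASS1 in arginine synthesis, differed the other way. It read 8.996, 8.79 and 9.04 in shControl cells with DMSO and 8.94, 9.18 and 8.94 with TMZ. In shp105 cells it read 9.31, 9.36 and 9.41 with DMSO and 9.38, 9.35 and 9.50 with TMZ. Each shp105 array was above each shControl array, by a smaller margin than for ASS1. The line difference was 0.42 (SE 0.08) in DMSO, a 1.33-fold higher level, and 0.39 (SE 0.08) in TMZ. It was past the threshold in 23 of 24 alternatives under each treatment. With the spike-in level in the fit it was 0.37 and 0.36 and not past the threshold. ASL lies at chr7:66075819-66093576 and was read by 1 probe set. Of the other enzyme of arginine turnover, ARG2, levels were 7.65, 7.31 and 7.36 in shControl and 7.68, 7.65 and 7.83 in shp105 cells with DMSO, where the groups overlapped, and 7.34, 7.53 and 7.40 against 7.56, 7.64 and 7.82 with TMZ, where they did not. The difference was 0.28 (SE 0.10) and 0.25 (SE 0.10). Its second probe set gave 0.16 and 0.01.

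The arginine carrier SLC7A1, also known as CAT1 and located at chr13:29509414-29595688, was somewhat higher in shp105 cells. With DMSO its levels were 10.59, 10.66 and 10.56 in shControl and 10.79, 10.88 and 10.74 in shp105 cells. With TMZ they were 10.46, 10.47 and 10.51 in shControl and 10.71, 10.78 and 10.86 in shp105 cells. The lines did not overlap under either treatment, and the difference was 0.20 (SE 0.06) in DMSO and 0.30 (SE 0.06) in TMZ. Over 25 alternatives it ran from 0.16, without shp105 DMSO replicate 2, to 0.47, with its second probe set, in DMSO and from 0.19 to 0.72 in TMZ. It was past the threshold in 15 of the 25 in DMSO and in 24 in TMZ. With the spike-in level in the fit it was 0.42, not past the threshold, in DMSO and 0.47 in TMZ. The 5 probe sets of SLC7A1 did not give 1 value: in order of their level the differences in DMSO were 0.20, 0.47, 0.16, 0.01 and 0.11, and in TMZ 0.30, 0.72, 0.24, 0.02 and -0.31. The last of these read 3.20 to 3.90, inside the range of the controls for absent sequences. SLC7A2, or CAT2, was near that range with all 3 of its probe sets, and its chosen probe set ran from 4.02 to 4.47 over the 12 arrays. With that probe set its groups overlapped in every comparison, and the line difference in TMZ was -0.12 (SE 0.08). The dimmest of the 3, at a mean level of 3.60 within the range of the controls, gave 0.06 (SE 0.08) in DMSO and -0.37 (SE 0.08) in TMZ, where the lines were apart. Its responses to TMZ were 0.21 (adjusted p = 0.422) in shControl and -0.23 (adjusted p = 0.240) in shp105 cells.

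Of the 5 polyamine genes among the 10, SMS, which makes spermine, and SAT1, which acetylates it, had the largest line differences, although that of the carrier SLC18B1, outside the 10 and given later, was larger. SMS read 11.23, 11.23 and 11.15 in shControl cells with DMSO and 11.00, 11.06 and 11.07 with TMZ. In shp105 cells it read 11.71, 11.81 and 11.80 with DMSO and 11.64, 11.65 and 11.53 with TMZ. The lines were apart on every array, and the difference was 0.57 (SE 0.05), or 1.48-fold, in DMSO and 0.56 (SE 0.05) in TMZ.

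SAT1, the acetyltransferase, gave the same ordering of the lines. Its levels were 9.68, 9.61 and 9.68 in shControl cells with DMSO and 9.56, 9.66 and 9.61 with TMZ. In shp105 cells all 3 DMSO arrays read 10.06, and the TMZ arrays 10.04, 10.08 and 10.13. The difference was 0.40 (SE 0.05), or 1.32-fold, in DMSO and 0.47 (SE 0.05) in TMZ, and the other 2 probe sets gave 0.50 and 0.38 in DMSO and 0.41 and 0.37 in TMZ. A further probe set that SAT1 shares with ZSWIM8 was not used. With the spike-in level in the fit SMS differed by 0.49 and SAT1 by 0.39 in DMSO, and by 0.50 and 0.47 in TMZ. In that fit neither was past the threshold in DMSO, and both were in TMZ. SMS (chrX:21940709-21994837) and SAT1 (chrX:23783173-23786210) lie 1788 kb apart on the X chromosome.

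Of the 3 genes that set the entry into polyamine synthesis, ODC1 differed between the lines with TMZ. With DMSO it read 12.57, 12.54 and 12.56 in shControl and 12.56, 12.48 and 12.53 in shp105 cells, overlapping. With TMZ it read 12.69, 12.69 and 12.66 in shControl and 12.49, 12.50 and 12.54 in shp105 cells, apart. The difference was -0.04 (SE 0.05) in DMSO and -0.17 (SE 0.05) in TMZ. In TMZ it ran from -0.18 to -0.16 over 24 alternatives and was past the threshold in 17 of them. With the spike-in level in the fit it was -0.17 and not past the threshold. OAZ1 ranged from 13.72 to 13.84 over the 12 arrays and AZIN1 from 10.42 to 10.78, and their line differences were 0.06 and 0.02 for OAZ1 and 0.06 and 0.0035 for AZIN1 in DMSO and TMZ. With the spike-in level in the fit those of OAZ1 were 0.03 and -0.00074 and those of AZIN1 0.30 and 0.18, none past the threshold.

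Over the 10 genes, 4 were past the threshold as higher and 1 as lower in shp105 cells in DMSO, where 8.34% and 11.6% of all genes were, and 4 as higher and 2 as lower in TMZ, against 10.1% and 11.0%. With an array left out the count higher in DMSO ran from 3 to 4. SLC7A1 did not pass there without shp105 DMSO replicate 1 or 2 or shControl DMSO replicate 1 or 3. The count lower in TMZ was 1 without shp105 TMZ replicate 1 or shControl TMZ replicate 1 or 2, where ODC1 did not pass. The list was made with this contrast in view, so nothing is read from these counts. The median difference was 0.13 in DMSO and 0.13 in TMZ, against -0.015 and -0.0078 over all genes. Counts with the spike-in level in the fit were 0 higher and 1 lower in DMSO, and 3 higher and 1 lower in TMZ.

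**Figure D3:**
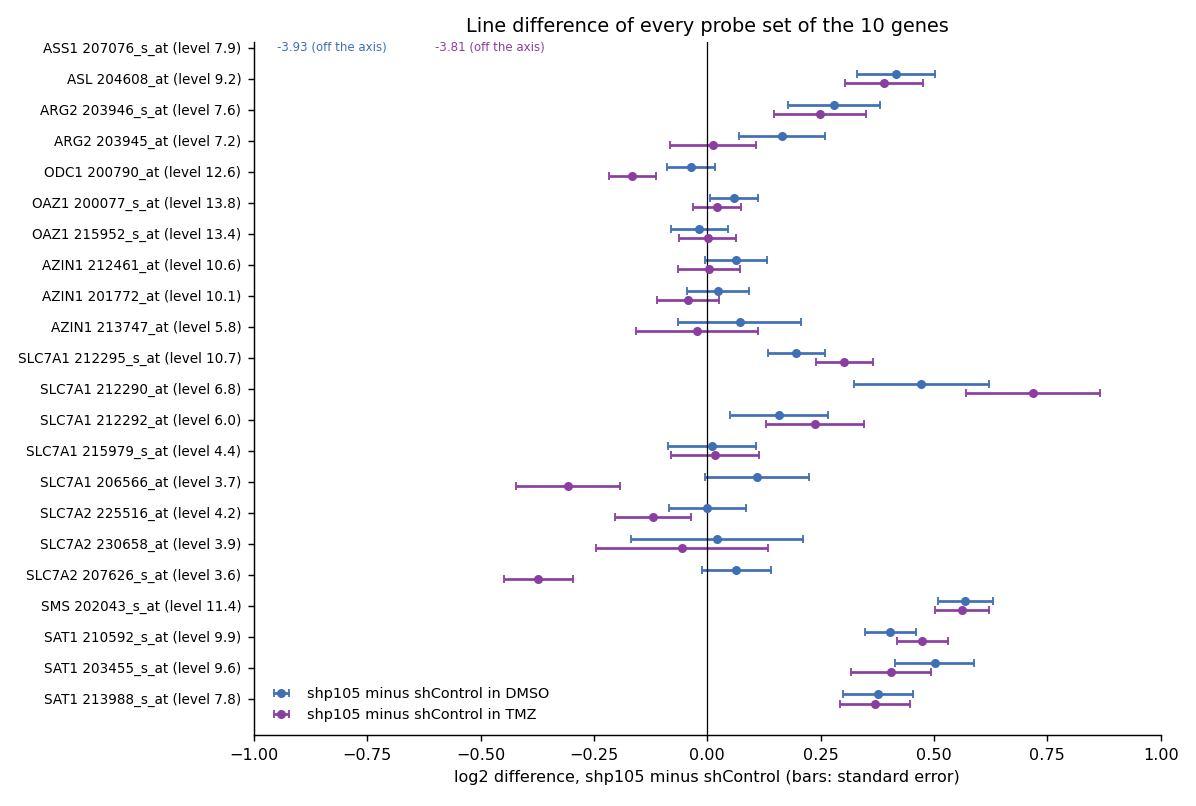
Log2 difference between the lines (x axis, shp105 minus shControl) for each of the 22 probe sets of the 10 genes, in DMSO and in TMZ, with the standard error as the bar and the mean level over the 12 arrays in the label. ASS1 is written at its value because it lies off the axis, at -3.93 and -3.81. The 3 probe sets of SAT1 lie between 0.37 and 0.50, and the 5 of SLC7A1 spread from -0.31 to 0.72.

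TMZ changed none of the 10 genes past the threshold in either line. In shControl cells 0 of 10 passed (limma, Benjamini-Hochberg over 19775 genes), where 0.369% of all genes did, and 2 of the 10 had an unadjusted p under 0.05, against 11.0% of all genes. In shp105 cells 0 of 10 passed, where 0.865% of all genes did, and again 2 had an unadjusted p under 0.05, against 16.3% of all genes. The median response of the 10 was -0.03 in shControl and -0.0054 in shp105 cells, against -0.0031 and 0.014 over all genes. The 95% intervals of the 10 responses together spanned -0.28 to 0.34 in shControl and -0.32 to 0.31 in shp105 cells. Larger changes lay outside the interval of every gene as read by its brightest probe set. Over all 22 probe sets the responses ran from -0.16 to 0.42 in shControl and from -0.40 to 0.33 in shp105 cells, and 0 were called.

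ASS1 responded to TMZ by -0.05 (SE 0.11, adjusted p = 0.921) in shControl and 0.08 (SE 0.11, adjusted p = 0.777) in shp105 cells. The gene with the largest line difference on the list thus had intervals of -0.28 to 0.19 and -0.16 to 0.31 for the drug. SMS was lower with TMZ on every array of both lines, by -0.16 (SE 0.05, adjusted p = 0.308) and -0.17 (SE 0.05, adjusted p = 0.170), and did not pass. In shp105 cells it passed with genes below the median level left out (adjusted p = 0.0492) and with trend and robust eBayes (adjusted p = 0.0222), within a range of 0.0222 to 0.415 over all alternatives. ODC1 was higher with TMZ on every shControl array, by 0.12 (SE 0.05, adjusted p = 0.361), and by -0.01 (adjusted p = 0.936) in shp105 cells, where the groups overlapped. In shControl cells it passed with trend and robust eBayes (adjusted p = 0.0482, in a range of 0.0482 to 0.950).

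AZIN1 was lower with TMZ on every shControl array, by -0.12 (SE 0.06, adjusted p = 0.529), and by -0.18 (SE 0.06, adjusted p = 0.200) in shp105 cells, where 1 array overlapped. It passed in shp105 cells with trend and robust eBayes (adjusted p = 0.0437, in a range of 0.0437 to 0.984). Its probe sets went different ways: the brightest gave -0.12 and -0.18, the next -0.07 and -0.13, and the dimmest, at a mean level of 5.84, 0.42 and 0.33. SLC7A1 was lower with TMZ on every shControl array, by -0.13 (SE 0.06, adjusted p = 0.454), and differed by -0.02 (adjusted p = 0.903) in shp105 cells. ASL, ARG2, OAZ1, SLC7A2 and SAT1 overlapped between TMZ and DMSO in both lines, with differences from -0.05 to 0.16.

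The response to TMZ did not differ between the lines past the threshold for any of the 10 genes. The test of the difference itself passed for 0 of 10 (0 at an unadjusted p under 0.05) and for 0% of all genes, of which 1266 had an unadjusted p under 0.05. The most different were ODC1, by -0.13 (SE 0.06, adjusted p = 0.790), and ASS1, by 0.12 (SE 0.15, adjusted p = 0.937). For ASS1 the 95% interval of the difference was -0.21 to 0.45, and over the 10 genes the intervals spanned -0.37 to 0.45. This comparison combines the means of all 4 groups and is the least precise of the 5.

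**Figure D4:**
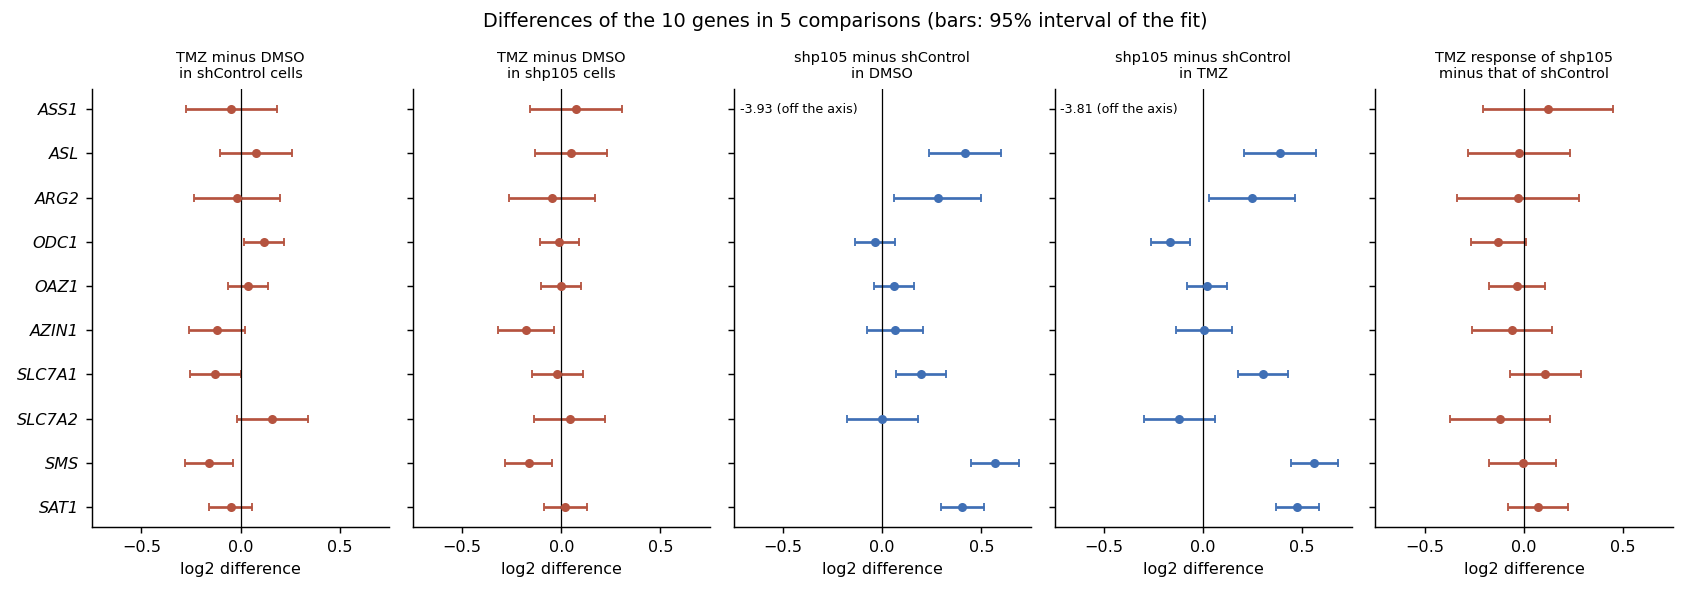
Log2 differences (x axis) of the 10 genes in the 5 comparisons, with the 95% interval of the fit as the bar. The TMZ responses and their difference lie close to 0, between -0.18 and 0.16, whereas between the lines ASL, SMS and SAT1 lie near 0.4 to 0.6 and ASS1 off the axis at -3.93 and -3.81.

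Beyond these 10, 67 further genes of arginine and polyamine metabolism were listed by role, and 63 were measured. Between the lines in DMSO 9 were higher and 7 lower in shp105 cells, and in TMZ 15 were higher and 5 lower. Of all genes 8.34% were called higher and 11.6% lower in DMSO, and 10.1% and 11.0% in TMZ. These shares are also the background of the counts by list in the next paragraphs, and nothing is read from those counts. The median of the 63 was 0.0096 in DMSO and 0.07 in TMZ, against -0.015 and -0.0078 over all genes. With the spike-in level in the fit 2 of the 63 were higher, SLC25A13 and SLC18B1, and 0 lower under each treatment. The line calls of the other genes named in the next paragraphs were lost, but standard errors also grew in that fit. In DMSO the NOS3 difference went from 0.66 (SE 0.15) to 0.78 (SE 0.38). That of EIF5A went from -0.30 (SE 0.09) to -0.0014 (SE 0.21). TMZ changed 0 of the 63 in shControl cells and 1 in shp105 cells, and the response differed between the lines for 0. At an unadjusted p under 0.05 these were 3, 16 and 5 of the 63, where 11.0%, 16.3% and 6.40% of all genes were. With each array left out in turn, 11 of the 16 calls in DMSO and 9 of the 20 in TMZ always held, those of SLC25A13, SLC25A15, SLC7A6, NOS3, DDAH1, PTS and SLC18B1 under both treatments. Lost at least once were SLC66A1, OAT, PYCR1, SAT2 and EIF5A in DMSO, and CPS1, GOT1, SLC3A1, CASTOR2, SPR, OAT, PAOX, EIF5A, EIF5A2, HIF1A and ATF4 in TMZ, and SLC66A1 in DMSO was lost with any of the 12 arrays left out.

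In arginine synthesis and the urea cycle, 2 of the other 10 genes were higher in DMSO and 4 in TMZ, and 0 were lower. SLC25A13, the citrin carrier that brings aspartate, a substrate of ASS1, out of mitochondria, read 9.62, 9.56 and 9.50 in shControl and 10.07, 10.22 and 10.13 in shp105 cells with DMSO. It was higher by 0.58 (SE 0.06, adjusted p = 2.63e-05) and by 0.53 (SE 0.06) in TMZ. SLC25A15, the mitochondrial ornithine carrier, was higher by 0.30 (SE 0.07, adjusted p = 0.00624) in DMSO and 0.52 (SE 0.07) in TMZ. GOT1, the cytosolic aspartate aminotransferase, was the 1 gene that rose with TMZ, in shp105 cells, from 9.56, 9.63 and 9.59 to 9.78, 9.95 and 9.91, by 0.29 (SE 0.06, adjusted p = 0.0492). The call was lost with the spike-in level in the fit (0.31, adjusted p = 0.264) and with any of 11 arrays left out (adjusted p up to 0.124), and held without shp105 TMZ replicate 1. GOT1 was also higher than in shControl cells in TMZ (0.22), as was CPS1, the carbamoyl phosphate synthetase (0.27).

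In arginine transport and sensing, 2 of the other 11 genes were higher and 1 lower in DMSO, and 3 higher and 1 lower in TMZ. SLC7A6, a plasma membrane exchanger of cationic for neutral amino acids, was higher by 0.30 (SE 0.07) and 0.29 (SE 0.07), and SLC66A1, a lysosomal exporter of cationic amino acids, by 0.17 and 0.27. SLC38A9, the lysosomal arginine sensor, was lower in DMSO (-0.27), and CASTOR2, a relative of the cytosolic arginine sensor, was higher in TMZ (0.28). SLC3A1, the heavy subunit of a cystine and cationic amino acid carrier, was lower in TMZ (-0.47), at levels of 4.67 to 5.60.

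Among 10 genes of nitric oxide and methylarginine metabolism, 2 were higher and 1 lower in DMSO, and 3 higher and 1 lower in TMZ. DDAH1, which breaks down the methylarginines that block nitric oxide synthases, was higher by 0.35 (SE 0.05) and 0.44 (SE 0.05). NOS3, the endothelial nitric oxide synthase, was higher by 0.66 (SE 0.15) and 0.91 (SE 0.15), from 4.57, 4.59 and 4.74 to 5.47, 5.19 and 5.21 with DMSO, a level close to the controls for absent sequences. TEK, given above, moved with the line in the same direction, and its part in this result was not tested. The tetrahydrobiopterin enzyme PTS was lower (-0.24 and -0.26), and SPR, which acts after it, was higher in TMZ (0.19). Of 4 creatine genes, GAMT, the methyltransferase of creatine synthesis, was lower in DMSO (-0.35). Of 6 ornithine and proline genes, OAT, the ornithine aminotransferase, was lower (-0.19 and -0.16) and PYCR1, a proline-making reductase, higher in DMSO (0.25).

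Of the other 7 genes of polyamine synthesis and its control, 0 were higher, and 1, the antizyme OAZ3, was lower in DMSO (-0.31) and 0 in TMZ. Of the 6 other genes of polyamine breakdown and transport, 1 was higher and 1 lower in DMSO, and 3 were higher in TMZ. The vesicular polyamine carrier SLC18B1 was higher by 0.67 (SE 0.06, adjusted p = 1.42e-05) in DMSO, from 7.85, 7.80 and 7.90 to 8.45, 8.59 and 8.51, and by 0.59 (SE 0.06) in TMZ. The polyamine oxidase PAOX (0.38) and the lysosomal polyamine exporter ATP13A2 (0.29) were higher in TMZ, and SAT2, a relative of SAT1, was lower in DMSO (-0.23). EIF5A, the translation factor that carries the spermidine-derived residue hypusine, was lower by -0.30 (SE 0.09) and -0.34 (SE 0.09), and EIF5A2 by -0.27 in TMZ, so that of 4 hypusine genes 1 was lower in DMSO and 2 in TMZ. Of 5 known regulators of the genes, HIF1A, the hypoxia factor, was higher by 0.22 and 0.20, and ATF4, the amino acid stress factor, was higher in TMZ (0.19).

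**Figure D5:**
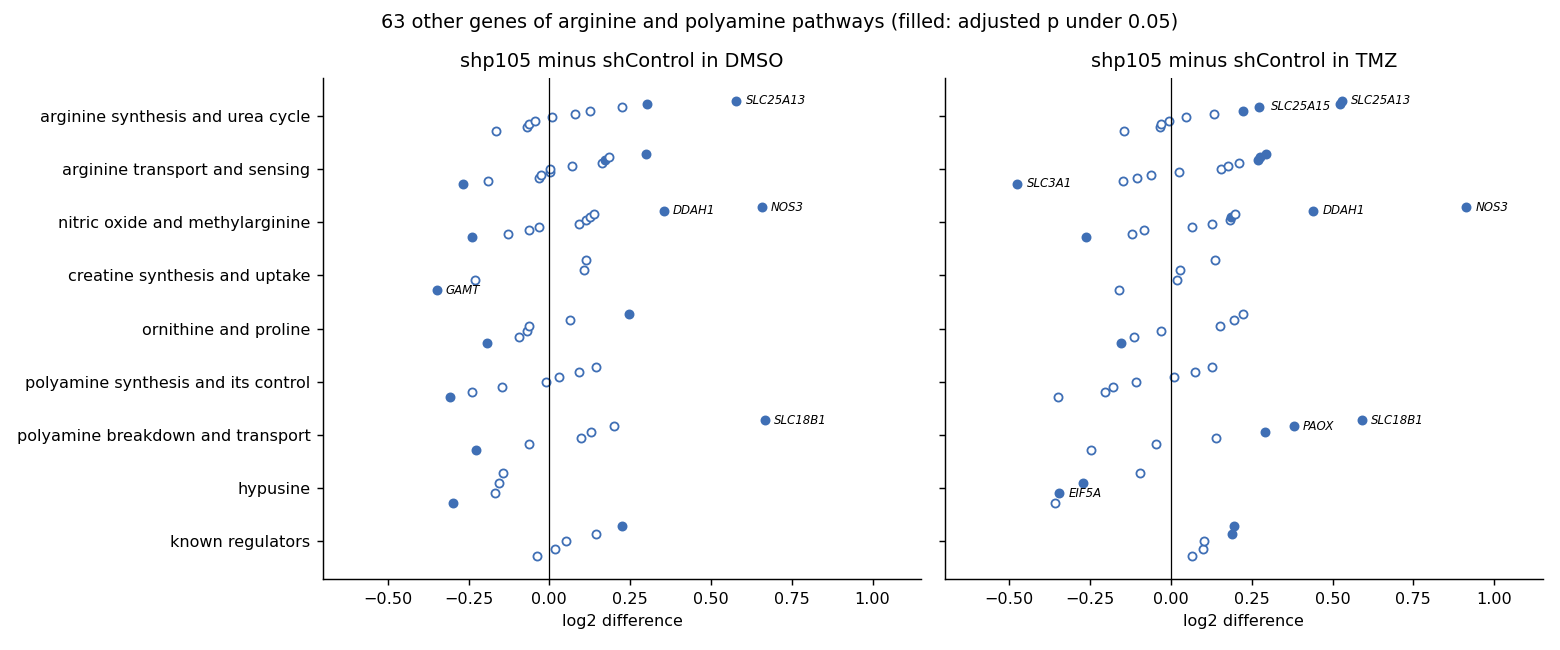
Log2 difference between the lines (x axis, shp105 minus shControl) of 63 other genes of arginine and polyamine metabolism, by list, in DMSO (left) and TMZ (right). Filled points passed the adjusted threshold, 9 higher and 7 lower in DMSO and 15 higher and 5 lower in TMZ, and genes past it by at least 0.33 are named.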

How the data were processed

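RNA of U-87 MG cells was read on 12 Affymetrix arrays, 3 in each of 4 groups set by the labels. The authors deposited log2 expression levels per probe set; RMA and Affymetrix Power Tools were used, per the submitters' processing notes, without a version or a role for either, and the probe annotation is not stated. Of 54675 probe sets, 41097 had 1 gene symbol in a platform table updated through RefSeq (GRCh38.p14), and the brightest of each gene gave 19775 genes. limma 3.58.1 in R 4.3.3 fitted 4 group means over all 12 arrays (lmFit, eBayes), with Benjamini-Hochberg adjustment over all genes and calls under 0.05, 2-sided. The number of arrays limits the precision. The fit was tested on simulated data. The 10 genes, the pathway lists and the naming rule were chosen with earlier results of these data known. Named were all 10 genes, the pathway genes called with TMZ or among the 4 smallest p of a list between the lines, the neighbours of ASS1 and the 5 genes most like it. Alternatives were other probe set summaries, leaving out dim genes, re-normalization, array weights, trend and robust eBayes, an ordinary linear model, fits of the compared groups alone, the replicate number as a block, the spike-in level as a covariate, an adjusted p under 0.01 and leaving out each array.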

Additional observations from a re-analysis of the deposited data

Results flagged for a closer look

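With TMZ, ATF4, the amino acid stress factor, read lower in shControl cells and higher in shp105 cells on these arrays. Every shControl array with TMZ (12.003, 11.99 and 11.96) was below every one with DMSO (12.06, 12.03 and 12.04). Every shp105 array with TMZ (12.13, 12.28 and 12.11) was above those with DMSO (12.01, 12.01 and 11.999). ATF4 was picked out because of this pattern. How many of all genes show such a pattern was not counted, so nothing is read from it. The response of shp105 cells minus that of shControl cells was 0.226 (SE 0.07, adjusted p = 0.693), which did not pass, nor did the responses of -0.06 (adjusted p = 0.740) and 0.17 (adjusted p = 0.153).

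The hybridization spike-ins, which are no genes of the cells and stood outside the comparisons, were higher on shp105 than on shControl arrays, by 0.498 in DMSO and 0.372 in TMZ. The 3′ to 5′ difference of the GAPDH probe sets was 0.252 and 0.301 in shControl cells with DMSO and TMZ and 0.361 and 0.397 in shp105 cells. That of the ACTB probe sets was 3.02 and 2.85 in shControl cells and 3.07 and 3.06 in shp105 cells.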

How the results depend on the processing

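The ASS1 line difference kept its direction in all 24 alternatives under each treatment, from -4.08 to -3.81 in DMSO and from -3.92 to -3.71 in TMZ. With 3 arrays a group, small differences could be missed, although some were called between the lines. SLC7A2 was read at levels near those of the controls for absent sequences, and the second probe sets of several genes disagreed with the first.

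With trend and robust eBayes, 1 of the 10 genes passed with TMZ in shControl and 2 in shp105 cells, and 1 and 3 of the 63 pathway genes. With dim genes left out these were 1 of the 10 in shp105 cells, and 1 and 4 pathway genes in shControl and shp105 cells, and 8 pathway genes were lower in TMZ. The single pathway gene called with TMZ in shp105 cells became 0 with each probe set on its own, median centring, array weights, only the compared groups, the spike-in covariate or a threshold of 0.01, and ran from 0 to 1 with an array left out. The spike-in covariate left 0 of the 10 genes higher in DMSO and 1 lower in TMZ, and of the pathway genes 2 higher under each treatment and 0 lower. Pathway genes lower in DMSO (7) became 4 with median centring, only the compared groups or a threshold of 0.01, and 4 to 7 with an array left out, the lowest without shControl DMSO replicate 1. Pathway genes lower in TMZ (5) became 3 with each probe set or only the compared groups, 8 with array weights, 1 at 0.01, and 2 to 5 with an array left out, 2 or 3 without shp105 TMZ replicate 1 or any shControl TMZ array. Those higher in TMZ (15) became 8 at 0.01. Genes of the 10 lower in TMZ (2) became 1 with each probe set, only the compared groups or 0.01, and 1 to 2 with an array left out. Those higher in DMSO (4) became 3 with each probe set or 0.01, where SLC7A1 did not pass, and ran from 3 to 4 with an array left out.

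Same-numbered arrays did not deviate together over 18 pairs (r from -0.14 to 0.12), and the main fit did not pair them. These values cannot show whether same-numbered samples were prepared together. With the replicate block 0 pathway genes passed with TMZ in shp105 cells and 3 were lower between the lines in TMZ. Of the 10 genes, 0 passed with TMZ in either line with this block.

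Of 725 values of single genes with TMZ under alternatives, 672 kept direction and call, 4 newly passed, as given above, and 49 changed sign without passing, 27 of them with an array left out. With an array left out the response in shControl cells ran from -0.0024 to 0.13 for ASL and from -0.082 to 0.088 for ARG2. In shp105 cells it ran from -0.042 to 0.17 for ASS1, -0.12 to 0.0084 for ARG2, -0.032 to 0.0095 for ODC1, -0.016 to 0.018 for OAZ1, -0.058 to 0.019 for SLC7A1, -0.023 to 0.080 for SLC7A2 and -0.0031 to 0.042 for SAT1. The difference of responses ran from -0.075 to 0.052 for ASL, -0.14 to 0.034 for ARG2 and -0.040 to 0.029 for SMS. With probe sets averaged per gene, shControl responses went to 0.047 for ARG2, -0.021 for OAZ1 and 0.078 for AZIN1, shp105 responses to 0.0050 for AZIN1, -0.091 for SLC7A2 and -0.074 for SAT1, and the difference for SAT1 to -0.011. With the second probe set, shControl responses went to 0.11 for ARG2, -0.080 for OAZ1 and -0.0074 for SLC7A2, shp105 responses to 0.12 for SLC7A1, -0.086 for SLC7A2 and -0.20 for SAT1, and the difference to 0.019 for OAZ1 and -0.097 for SAT1. With the spike-in covariate, shControl responses went to 0.034 for AZIN1 and 0.015 for SLC7A1, the shp105 response of SLC7A1 to 0.066 and the difference for SMS to 0.014. Quantile normalization took OAZ1 in shp105 cells to 0.0010, median centring SAT1 in shp105 cells to -0.019, and array weights the difference for ASL to 0.0014. The cause was not tested.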

Other observations

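Further values were looked up after the levels had been seen. ARG1, the cytosolic liver arginase, read 2.98 to 3.59 and OTC, which makes citrulline in the liver, 2.76 to 3.45 over the 12 arrays, both inside the range of the controls for absent sequences (2.33 to 4.30). MTAP, which salvages the by-product of spermidine and spermine synthesis, read 4.52 to 4.91, and it was not called in any of the 5 comparisons.

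The neighbours of ASL, SLC7A1, SMS and SAT1 were also looked up, a choice made from the values of these genes. Of all genes 8.34% were called higher and 11.6% lower in DMSO, and 10.1% and 11.0% in TMZ. Nothing is read from the counts of neighbours. Of the 10 nearest measured genes of ASL, 1 was higher and 1 lower in DMSO (limma, adjusted over all genes), from -0.31 (VKORC1L1) to 0.27 (TPST1). In TMZ 1 was higher, LINC03011 (0.21), and 2 were lower, LINC03006 (-0.54) and VKORC1L1 (-0.23), beside 0.39 for ASL. Around SLC7A1, 1 of 10 was higher, SLC46A3, by 0.33 in DMSO and 0.55 in TMZ. Around SMS, 0 were higher and 2 lower in DMSO, MBTPS2 by -0.29 and RPS6KA3 by -0.20, beside 0.57 for SMS. In TMZ 1 was higher, PHEX (0.28), and 2 were lower, MBTPS2 (-0.36) and RPS6KA3 (-0.21). Around SAT1, 0 of 10 were called in DMSO, from -0.20 to 0.08, and 1 was lower in TMZ, EIF2S3, a translation initiation subunit, by -0.28. The lists of SMS and SAT1 share CBLL2, DDX53 and PTCHD1. With the spike-in level in the fit 0 of these calls held in DMSO, and in TMZ those of SLC46A3 (0.67) and LINC03006 (-1.01) did.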
